A study of Rattus norvegicus with 8 samples.

Results

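Clathrin endocytosis and synaptic vesicle recycling were examined as a group of 10 genes in the frontal cortex of olanzapine-treated and saline-treated rats. The 10 genes are Cltc, Clta and Cltb, which encode the clathrin chains, the adaptor genes Ap2a2, Ap2b1 and Picalm, the membrane-bending and scission genes Amph and Dnm1, and Synj1 and Dnajc6, whose products strip the coat from the vesicle. They were taken as every probe set that the platform annotation assigns to exactly one of these symbols, which gave 12 of the 31042 probe sets that are not controls, for 9 of the 10 genes. Picalm had no probe set under that rule and is not analysed here. The genes were chosen by function with the olanzapine-minus-saline differences on these same arrays already known, so the differences below are a description of the 8 arrays and carry no test of their own.

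The data are 8 Affymetrix arrays of frontal cortex RNA from Sprague-Dawley rats, all male, of a commonly used outbred stock, that weighed about 200 g at the start. Olanzapine, an antipsychotic drug that blocks serotonin and dopamine receptors, was given intraperitoneally at 2 mg/kg/day for 21 days to 20 randomly assigned rats, of which animals 9, 14, 18 and 19 were arrayed. Saline was given for the same 21 days to 20 rats, of which animals 14, 15, 17 and 19 were arrayed. Each array is named by its group and a number, which is taken here as the number of the animal. No genetic modification is named for either group. Neither the age of the rats nor the time between the last dose and dissection is given in the sources used here. The question posed by the design is which cortical transcripts differ after repeated olanzapine.

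Clathrin is a lattice protein, built from heavy and light chains, that assembles on the inner face of a membrane and bends it into a pit. In nerve terminals the AP-2 adaptor ties the lattice to membrane lipid and to vesicle proteins, amphiphysin and dynamin narrow and cut the neck of the pit, and synaptojanin and auxilin then release the adaptors and the clathrin so that the vesicle can be refilled with transmitter. Neurons carry out this cycle at every active synapse, and several of its proteins, auxilin and amphiphysin among them, are far more abundant in brain than elsewhere.

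Intensities are linear array units as deposited, and their mean after trimming 2% at each end was 500.1 to 500.2 on every array. Differences are olanzapine minus saline on the scale of log2(intensity + 63.4), where the added value is the 25th percentile of all deposited values, and they understate the change of dim probe sets. Intensities of different probe sets are not compared as amounts of RNA. In bulk cortex, fewer cells of a type and less RNA per cell cannot be told apart.

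Within the group, the heavy chain gene Cltc and the auxilin gene Dnajc6 had lower intensities in all 4 olanzapine arrays than in all 4 saline arrays. The log2 differences were -0.34 for Cltc and, for the 2 probe sets of Dnajc6, -0.37 and -0.20. Groups were apart in that direction in 2.07% of all tested probe sets. The share was 30.5% in the brightest 1%, which include Cltc and the brighter Dnajc6 probe set. The light chain gene Clta was higher by 0.43, with 1 pair of arrays overlapping, and the light chain gene Cltb was lower by 0.25 with wide overlap. The adaptor, dynamin, amphiphysin and synaptojanin genes differed by 0.22 or less in either direction. By limma across 18625 probe sets, 0 passed an adjusted p of 0.05, which is 0% of those tested, against 1549 at an unadjusted p under 0.05. The clathrin probe sets had limma adjusted p-values of 0.317 to 0.946. For Cltc the difference was -0.0067 once the arrays had been quantile normalized, and for Dnajc6 it was -0.095.

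**Figure D1:**
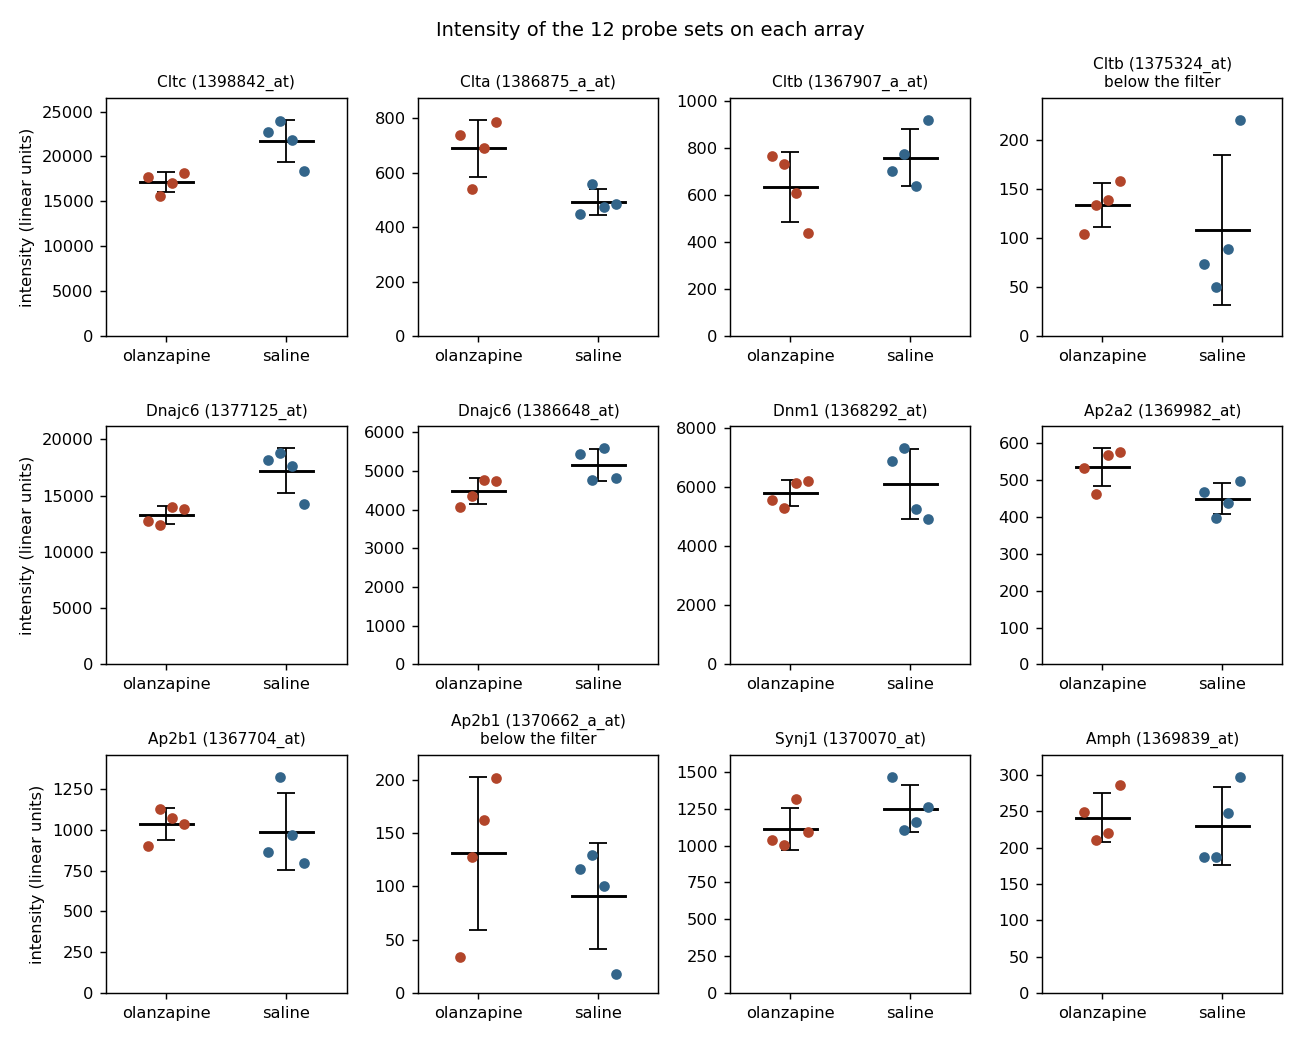
Intensity in linear array units of each of the 12 probe sets on the 4 olanzapine arrays (left of each panel) and the 4 saline arrays (right), with the mean and 1 SD. Cltc and both Dnajc6 probe sets have every olanzapine point below every saline point, as do 2.07% of all tested probe sets. Below the filter on dim probe sets lie 2 of the 12.

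Cltc encodes the clathrin heavy chain, the triskelion leg that forms the lattice. Its probe set 1398842_at read 17672, 15620, 17071 and 18170 in olanzapine 9, 14, 18 and 19, against 22766, 23912, 21885 and 18428 in saline 14, 15, 17 and 19. Saline 19 lay just above the highest olanzapine array and well below the other saline arrays. The means were 17133 ± 1104 in olanzapine and 21748 ± 2364 in saline (SD, n = 4 each), a log2 difference of -0.34 (SE 0.086). This probe set lay at percentile 99.98 of brightness among all probe sets. Ordered within its own array, it was the probe set at rank 14, 10, 7 and 5 from the brightest in the olanzapine arrays, against rank 8, 6, 10 and 8 in the saline arrays. Its place in the order therefore overlapped between the groups although its intensity did not.

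Dnajc6 encodes auxilin, the J-domain protein that recruits the chaperone Hsc70 to clathrin-coated vesicles so that the coat comes off. Its brighter probe set, 1377125_at, read 12758, 12379, 14028 and 13805 in olanzapine 9, 14, 18 and 19, against 18156, 18765, 17659 and 14292 in saline 14, 15, 17 and 19. As for Cltc, saline 19 was the lowest saline array and stood close to the olanzapine arrays. The means were 13243 ± 799 in olanzapine and 17218 ± 2002 in saline (SD, n = 4 each), a log2 difference of -0.37 (SE 0.089). Its rank from the brightest was 36 to 77 in the olanzapine arrays and 31 to 43 in the saline arrays. The other probe set, 1386648_at, read 4071, 4362, 4762 and 4745 in olanzapine 9, 14, 18 and 19, against 5442, 4769, 5594 and 4821 in saline 14, 15, 17 and 19. The gap between its groups was narrow, with 4762 in olanzapine 18 and 4769 in saline 15. Its log2 difference was -0.20 (SE 0.089), so both probe sets of the gene were lower in olanzapine but by different amounts.

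All 4 olanzapine arrays lay below all 4 saline arrays for 3 of the 10 tested clathrin probe sets, the one of Cltc and both of Dnajc6, where 2.07% of all 18625 tested probe sets did so. No clathrin probe set had all olanzapine arrays above all saline arrays, where 2.4% of the tested ones did. As the differences were known when the genes were chosen, nothing is read from these counts. Without saline 19 the same 3 probe sets lay below, beside 5.14% of all tested probe sets, and after quantile normalization 0 of the 10 did, beside 1.76%.

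Brightness moved with this result. Of the 187 probe sets in the brightest 1% of those tested, which include Cltc and the brighter Dnajc6 probe set, 98.9% had a negative difference, their median difference was -0.25, and in 30.5% all olanzapine arrays lay below all saline arrays. Of the 932 in the brightest 5%, which also include the other Dnajc6 probe set and Dnm1, 88.7% were negative with a median of -0.15 and 18.6% did not overlap in that direction. Over all tested probe sets 44.0% were negative, and the median was 0.027. At the 98th percentile of an array the olanzapine arrays read 5474 to 5735 and the saline arrays 5618 to 6287, with saline 19 the lowest of the saline arrays. The 9 bacterial control probe sets named for BioB, BioC, BioDn and CreX, whose RNA does not come from the rats, averaged 11.79 to 12.55 on the log2 intensity scale in olanzapine and 12.42 to 12.94 in saline. The cause of this slope with brightness was not tested.

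**Figure D2:**
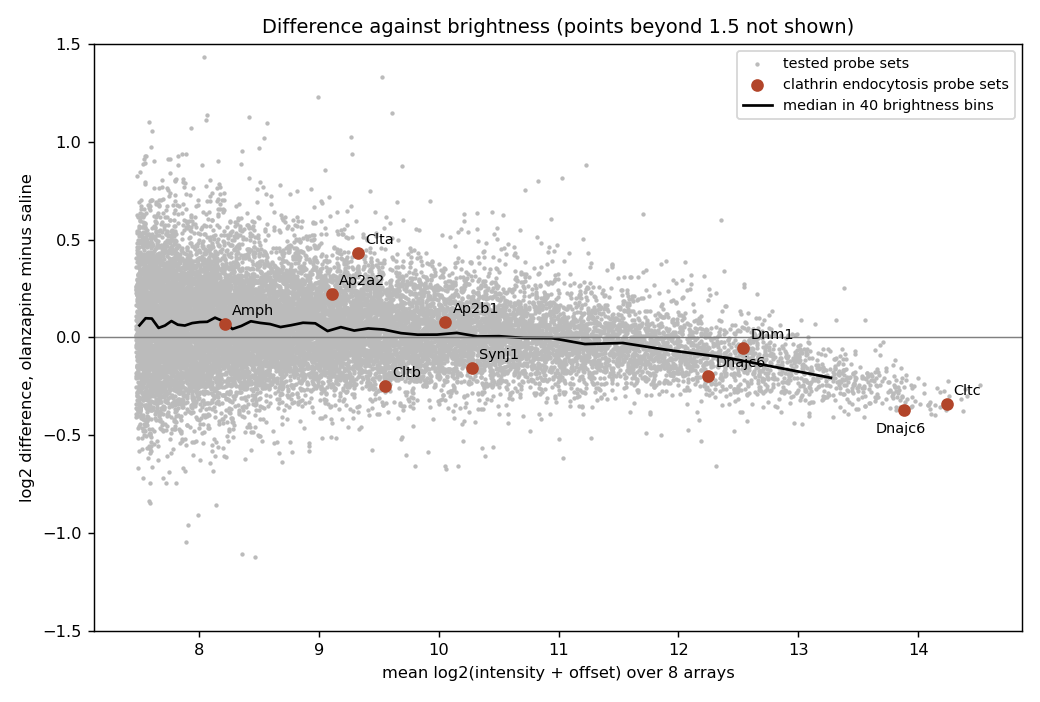
Log2 difference, olanzapine minus saline, against mean log2(intensity + 63.4) over the 8 arrays for tested probe sets (grey; 1 point beyond 1.5 is not shown), with the 10 tested clathrin endocytosis probe sets in red and the median in 40 bins of equal size as a line. The line falls below 0 towards the bright end, where Cltc, Dnajc6 and Dnm1 lie, and Clta stands above it.

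Quantile normalization gives every array the same distribution of values, so each value follows from its rank within its array. The Cltc value under it is thus no separate reading from the ranks above. After quantile normalization Cltc differed by -0.0067 (SE 0.045) and the brighter Dnajc6 probe set by -0.095 (SE 0.050). After cyclic loess, which removes a smooth trend with brightness between arrays, they differed by -0.11 (SE 0.044) and -0.17 (SE 0.049). For the other Dnajc6 probe set the values were -0.11 with quantile normalization and -0.10 with cyclic loess. Median centring, which shifts each array by 1 value, left the differences at -0.39 for Cltc and -0.42 for the brighter Dnajc6 probe set. Every one of these settings kept the negative sign for both genes, and the size ranged from near 0 to more than the deposited value.

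**Figure D3:**
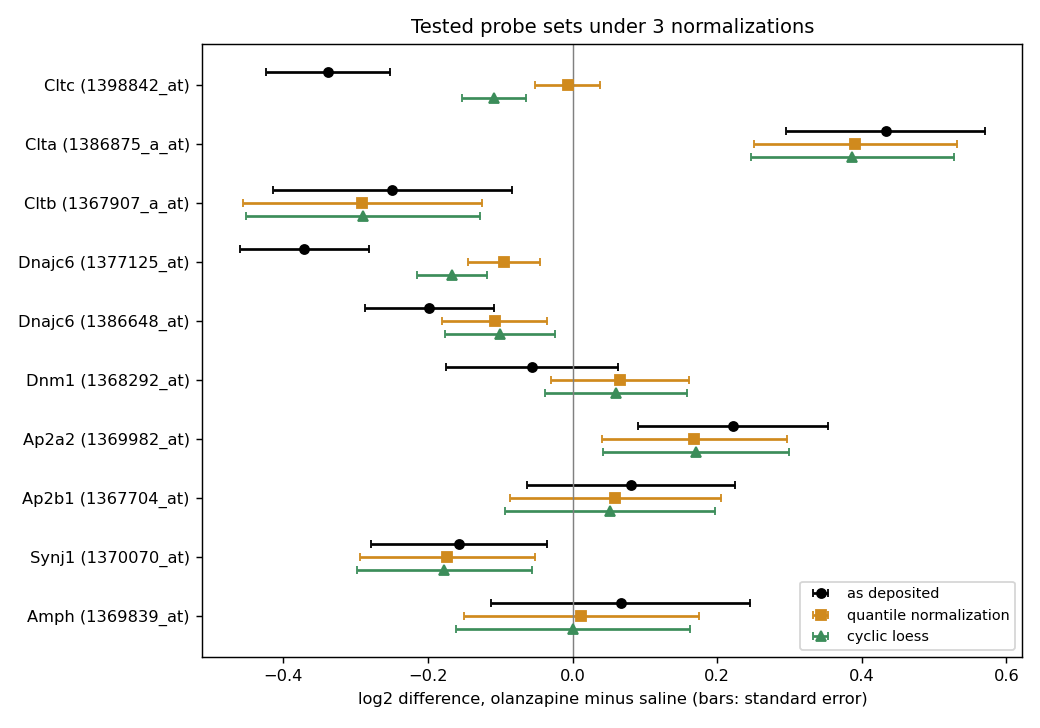
Log2 difference, olanzapine minus saline, with its standard error for the 10 tested probe sets as deposited (circles), after quantile normalization (squares) and after cyclic loess (triangles). Cltc and the brighter Dnajc6 probe set move towards 0, Dnm1 moves across 0, with -0.056 as deposited and 0.065 and 0.060 otherwise, and Clta, Cltb, Ap2a2 and Synj1 move little.

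Leaving out saline 19 changed the calls on these genes. Without that array limma called 107 of the 18625 tested probe sets, 11 higher and 96 lower in olanzapine. Among them were 2 of the 10 tested clathrin probe sets, Cltc at -0.42 and the brighter Dnajc6 probe set at -0.46. Each had a limma adjusted p of 0.0182 in this fit, which used the intensities as deposited, with their slope with brightness. As the genes were chosen with the differences known, nothing is read from this count. With any other array left out 0 clathrin probe sets were called, and Cltc ran from -0.37 to -0.29. The ratio of the 3' to the 5' control probe set, a measure of RNA integrity and labelling, was 3.62 to 5.80 in olanzapine and 4.55 to 5.99 in saline for Gapdh. For beta-actin it was 9.18 to 20.6 in olanzapine and 7.74 to 29.4 in saline. Saline 19 had the highest beta-actin ratio but, at 4.55, the lowest Gapdh ratio of the saline arrays. The part of RNA integrity in the clathrin differences was not tested.

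The clathrin light chains sit on the heavy chain and regulate assembly of the lattice. Clta, which encodes light chain A, read 740.0, 542, 692 and 785 in olanzapine 9, 14, 18 and 19, against 447, 559, 473 and 487 in saline 14, 15, 17 and 19. The groups overlapped only through olanzapine 14, which was below saline 15. The means were 689.6 ± 106 in olanzapine and 491 ± 48.0 in saline (SD, n = 4 each), a log2 difference of 0.43 (SE 0.14) or 1.35-fold. Of all probe sets 22.8% were brighter than Clta, which placed it away from the bright end. Its difference was 0.39 after both quantile normalization and cyclic loess and 0.38 after median centring. It ran from 0.37 without olanzapine 19 to 0.53 without olanzapine 14, so 1 array did not decide its sign.

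Cltb, which encodes light chain B, read 768, 734, 608 and 438 with probe set 1367907_a_at in olanzapine 9, 14, 18 and 19, against 702, 778, 638 and 923 in saline 14, 15, 17 and 19. The lowest value was in olanzapine 19 and the highest in saline 19, the other arrays interleaved, and the groups overlapped. The means were 637 ± 149 in olanzapine and 760.2 ± 123 in saline (SD, n = 4 each), a log2 difference of -0.25 (SE 0.16). Without olanzapine 19 it was -0.098, without saline 19 it was -0.16, and after quantile normalization it was -0.29. A second probe set of Cltb, 1375324_at, fell below the filter and read 104 to 158 in olanzapine and 49.8 to 220.4 in saline, with the highest saline value again in saline 19. The sign of its mean difference was opposite, with 134 ± 22.2 in olanzapine and 108 ± 76.5 in saline (SD, n = 4 each), and without the filter it differed by 0.29 with a limma adjusted p of 0.886. Both light chain genes make longer neuronal splice forms, and which forms these probe sets detect is not given in the sources used here.

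The 250 bases before the annotated start of the genes whose intensities set the groups furthest apart are shown from RefSeq (assembly GRCr8), 5′ to 3′ on the strand of the gene, with letters in capitals where a searched motif lies. The Cltc stretch is chr10:72070692-72070941 on the minus strand, that of Dnajc6 is chr5:121289949-121290198 and that of Clta is chr5:63040970-63041219, both on the plus strand.
Cltc: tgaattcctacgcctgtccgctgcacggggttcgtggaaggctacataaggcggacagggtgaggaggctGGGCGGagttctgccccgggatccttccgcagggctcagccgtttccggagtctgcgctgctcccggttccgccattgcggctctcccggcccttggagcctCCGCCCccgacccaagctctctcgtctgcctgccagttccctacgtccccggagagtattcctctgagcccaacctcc
Dnajc6: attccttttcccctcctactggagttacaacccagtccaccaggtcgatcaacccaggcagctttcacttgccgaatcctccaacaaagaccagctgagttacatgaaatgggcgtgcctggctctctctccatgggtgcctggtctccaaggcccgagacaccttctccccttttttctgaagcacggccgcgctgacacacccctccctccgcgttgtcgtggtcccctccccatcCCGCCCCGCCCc
Clta: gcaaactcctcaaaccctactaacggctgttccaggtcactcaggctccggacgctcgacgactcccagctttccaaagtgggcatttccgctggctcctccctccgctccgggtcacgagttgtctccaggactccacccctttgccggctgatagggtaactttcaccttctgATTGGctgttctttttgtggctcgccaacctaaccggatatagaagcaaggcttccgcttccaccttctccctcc

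Promoter letters were searched on both strands over the 250 bases for the GC box GGGCGG, the CCAAT box, TATAAA, the E-box CACGTG, the cAMP response element TGACGTCA, the ETS site CCGGAAGT and the NRF1 site (GCGCA, any base, GCGC). Cltc held 2 GC boxes, starting 180 and 78 bases before the start, and Dnajc6 held 2 that share 1 base, 12 and 7 bases before it. Clta held no GC box and 1 CCAAT box in reverse, 75 bases before the start. GC boxes occur in 30.5% and CCAAT boxes in 34.0% of 33469 rat promoter stretches of the same length, and TATAAA, found in 12.9% of them, was in none of the 10 genes' stretches. The E-box and the NRF1 site, in 5.59% and 3.75% of all stretches, were in none of the 10 either.

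Of the 10 genes, 5 held a GC box (Cltc, Cltb, Dnajc6, Ap2a2 and Picalm). The full cAMP response element occurs in 1.59% of all stretches and was found in 2 of the 10, Cltb and Ap2b1. These 60-base windows, chr17:10006587-10006646 for Cltb and chr10:68600635-68600694 for Ap2b1, both on the plus strand, are shown because they hold the rarest of the searched motifs, in capitals.
Cltb: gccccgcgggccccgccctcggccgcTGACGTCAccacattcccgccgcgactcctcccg
Ap2b1: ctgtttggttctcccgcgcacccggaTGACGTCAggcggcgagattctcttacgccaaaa

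The element lay 102 bases before the start in Cltb and 62 before it in Ap2b1, where an ETS site, found in 3.10% of all stretches, followed 29 bases before the start. Neither gene's groups were apart, and a match in these letters is no measure of binding. Dnm1, Synj1 and Amph held none of the searched motifs in this window.

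AP-2 is the adaptor of the plasma membrane, with large alpha and beta subunits beside a medium and a small one. Ap2a2, which encodes an alpha subunit that binds membrane lipid and accessory proteins, read 532, 463, 569 and 576 in olanzapine 9, 14, 18 and 19, against 467, 396, 439 and 496 in saline 14, 15, 17 and 19. Olanzapine 14 lay inside the saline range and the other 3 olanzapine arrays above it. The means were 535 ± 51.9 in olanzapine and 449.6 ± 42.7 in saline (SD, n = 4 each), a log2 difference of 0.22 (SE 0.13). The difference kept its sign with each array left out, from 0.17 to 0.28, and was 0.17 after quantile normalization.

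Ap2b1, which encodes the beta subunit that binds the clathrin heavy chain, read 898, 1129, 1071 and 1038 with probe set 1367704_at in olanzapine 9, 14, 18 and 19, against 866, 1326, 966 and 798 in saline 14, 15, 17 and 19. Saline 15 was above every olanzapine array and the other saline arrays lay in or under the olanzapine range. The log2 difference was 0.080 (SE 0.14), with 0.22 without saline 15 and -0.0078 without saline 19. The SD was 98.1 in olanzapine and 235 in saline. A dimmer probe set of the gene, 1370662_a_at, was below the filter, at 33.3 to 202 in olanzapine and 17.7 to 129 in saline, with olanzapine 9 and saline 19 the low arrays of their groups. Without the filter it differed by 0.32 with a limma adjusted p of 0.897.

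The remaining AP-2 subunit genes lie outside the group of 10. Ap2m1, which encodes the medium subunit that recognises cargo, was at 7891 ± 666 in olanzapine and 7833 ± 948 in saline, a log2 difference of 0.015 (SE 0.097) as deposited and 0.18 after quantile normalization. Ap2s1, which encodes the small subunit, was at 306 ± 69.0 in olanzapine and 264 ± 67.3 in saline, a difference of 0.18 (SE 0.19). Ap2a1, the other alpha subunit gene, is not analysed here.

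Amph encodes amphiphysin, which senses membrane curvature and recruits dynamin to the neck of the pit. Its probe set read 248, 210.3, 220.2 and 287 in olanzapine 9, 14, 18 and 19, against 187, 187, 248 and 298 in saline 14, 15, 17 and 19. The groups interleaved, with means of 241 ± 34.2 in olanzapine and 229.8 ± 53.7 in saline and a log2 difference of 0.067 (SE 0.18). The value turned to -0.0018 without olanzapine 19, to -0.0039 without saline 14 and to -0.0034 without saline 15. Bin1, which encodes the related amphiphysin 2, was at 8512 ± 435 in olanzapine and 8947 ± 596 in saline, with a log2 difference of -0.070 (SE 0.078) as deposited and 0.11 after quantile normalization.

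Dnm1 encodes dynamin 1, the neuronal GTPase that cuts the vesicle from the membrane. It read 5554, 5290.1, 6145 and 6194 in olanzapine 9, 14, 18 and 19, against 6889, 7321, 5253 and 4930.5 in saline 14, 15, 17 and 19. The saline arrays fell into a high and a low pair on either side of the olanzapine arrays. The SD was 445 in olanzapine and 1183 in saline, and the log2 difference was -0.056 (SE 0.12). Its sign turned after quantile normalization, to 0.065, after cyclic loess, to 0.060, and without saline 14 or saline 15, to 0.0091 and 0.038. Dnm3, a dynamin gene also used in neurons, was at 207 ± 43.2 in olanzapine and 154.5 ± 29.8 in saline, a difference of 0.31 (SE 0.19), and Dnm2 was below the filter.

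Synj1 encodes synaptojanin 1, the phosphatase that removes the lipid signal holding adaptors on the new vesicle. It read 1042, 1005, 1320.4 and 1095 in olanzapine 9, 14, 18 and 19, against 1470 in saline 14, 1108 in saline 15, 1163 in saline 17 and 1264 in saline 19. Of the olanzapine arrays 3 lay below the saline range, and olanzapine 18 lay inside it. The means were 1116 ± 142 in olanzapine and 1251 ± 159 in saline (SD, n = 4 each), a log2 difference of -0.16 (SE 0.12). It kept its sign with each array left out, from -0.24 without olanzapine 18 to -0.080 without saline 14, and was -0.17 after quantile normalization. Synj2, the paralogue, was at 174 ± 35.1 in olanzapine and 155 ± 8.43 in saline, with 0.11 (SE 0.19).

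**Figure D4:**
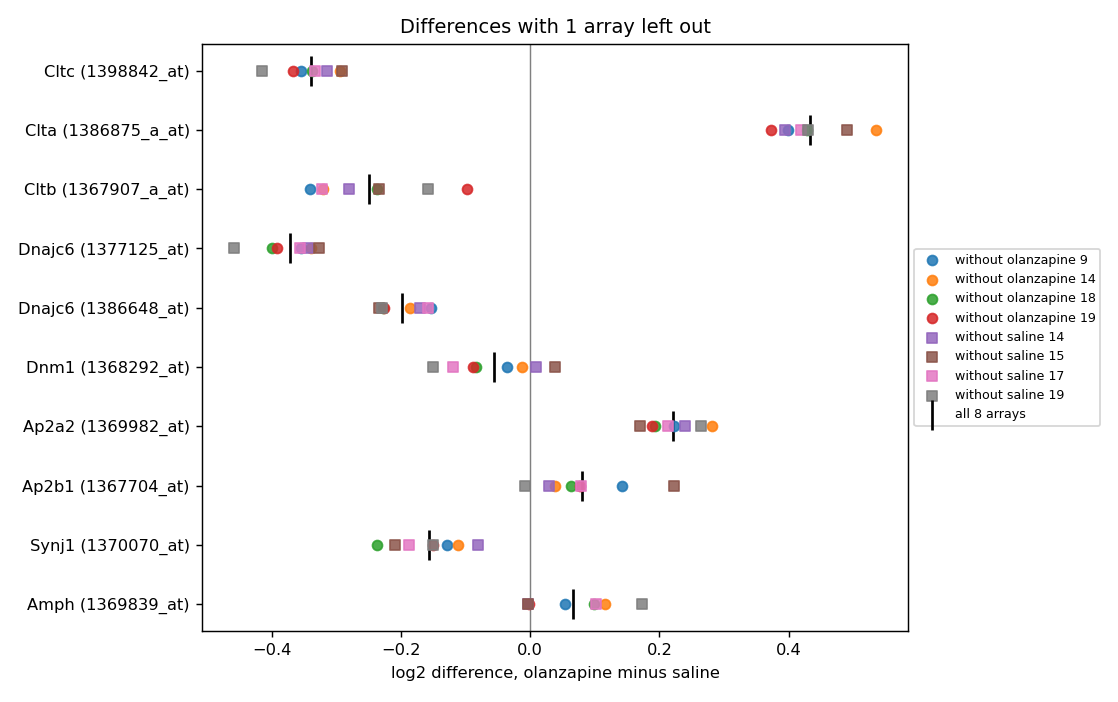
Log2 difference, olanzapine minus saline, of each tested probe set with 1 array left out at a time (coloured points; circles for a left-out olanzapine array, squares for a left-out saline array) and with all 8 arrays (black bars). Cltc, Clta, Cltb, both Dnajc6 probe sets, Ap2a2 and Synj1 keep their sign, and Dnm1, Ap2b1 and Amph cross 0.

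Taking the brightest tested probe set of each gene, 5 of the 9 genes were lower and 4 higher in olanzapine, with a median log2 difference of -0.056, beside a median of 0.027 over all tested probe sets. After quantile normalization the median of the 9 was 0.012. The spread between animals was of unequal size in the groups for some genes. The coefficient of variation was 7.68% in olanzapine and 19.4% in saline for Dnm1, and 9.49% and 23.8% for Ap2b1. For Clta it ran the other way, at 15.3% in olanzapine and 9.77% in saline.

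Partner genes were mixed in direction. Of 20 partners and paralogues named for their roles, 15 were tested, with 7 lower and 8 higher in olanzapine. Snap91, which encodes the clathrin assembly protein AP180, the neuronal relative of Picalm, read 7669, 6635, 7530.0 and 8591 in olanzapine 9, 14, 18 and 19, against 10698, 10324, 9877 and 8854 in saline 14, 15, 17 and 19. Every olanzapine array was below every saline array, where 2.07% of all tested probe sets did so, and saline 19 was again the nearest. The log2 difference was -0.39 (SE 0.091, limma adjusted p 0.317) as deposited and -0.21 after quantile normalization. The probe set was among the brightest 5% of those tested, where 18.6% had groups apart in that direction. Hip1, whose product links clathrin to actin, was at 467 ± 42.4 in olanzapine and 379 ± 30.2 in saline, a difference of 0.26 (SE 0.13). All its olanzapine arrays lay above all its saline arrays, where 2.4% of all tested probe sets did so. Of the 4 tested Hip1 probe sets 1 had groups apart, and the dimmest had a difference of -0.20.

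Gak, which encodes the form of auxilin used in all tissues, was at 1493 ± 111 in olanzapine and 1579 ± 329 in saline, a difference of -0.060 (SE 0.13). Among adaptor-linked genes, the scaffold gene Itsn1 differed by 0.22 (SE 0.15) and the early coat gene Eps15 by -0.14 (SE 0.098) in its brightest probe set and 0.092 in the other. Aak1, which encodes a kinase of the AP-2 medium subunit, had 4 tested probe sets that ran from -0.15 in the brightest to 0.37 in the dimmest. In the dimmest all olanzapine arrays lay above all saline arrays, where 2.4% of all tested probe sets did so. Pip5k1c, whose product makes the lipid that recruits AP-2, differed by -0.14 (SE 0.091), and Pacsin1, a membrane-bending partner of dynamin, by 0.14 (SE 0.24). Epn1 and Sh3gl2 were below the filter, and Hspa8 is not analysed here. Of the adaptors of other membranes, Ap1b1 of AP-1 differed by 0.16 (SE 0.11) and Ap3b2, the neuronal beta subunit of AP-3, by -0.0045 (SE 0.10).

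The wider pathway was described from 90 further genes of coats, scission, uncoating and regulation, of which 72 were tested. Limma called 0 of them, 37 were lower and 35 higher, and their median was -0.0019. In 4 of the 72 all olanzapine arrays lay below all saline arrays, Snap91, Ppp3ca, Rab11b and Calm2. In 2 of them, Hip1 and Sv2a, all lay above, with each gene read by its brightest tested probe set. Over all tested probe sets the shares were 2.07% below and 2.4% above. Snap91, Ppp3ca, Rab11b and Calm2 all lay in the brightest 5% of those tested, where the share below was 18.6%. By role, the other coat and adaptor genes had 13 of 24 lower with a median of -0.015, the other scission, lipid and uncoating genes 11 of 28 lower with 0.061, and the regulators, Rab proteins and vesicle cargo 13 of 20 lower with -0.055. Subunits of AP-1, AP-3 and AP-4 had 6 of 16 lower with a median of 0.030. Synaptic vesicle and SNARE genes, of which 7 are also among those regulators and cargo, had 17 of 27 lower with a median of -0.085, and 0.014 after quantile normalization, where the clathrin genes had -0.056 and 0.012. Among the synaptic vesicle and SNARE genes, all olanzapine arrays lay below all saline arrays for Snap25 and Sv2b, and above for Sv2a. Snap25 and Sv2b lay in the brightest 1% of those tested, where the share below was 30.5%. In the clathrin genes and in these synaptic genes alike, the median moved towards or past 0 when the distributions of the arrays were made equal. It did so too in the other coat and adaptor genes, the regulators and cargo, and the subunits of AP-1, AP-3 and AP-4. The median of the other scission, lipid and uncoating genes moved away from 0, from 0.061 to 0.073.

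**Figure D5:**
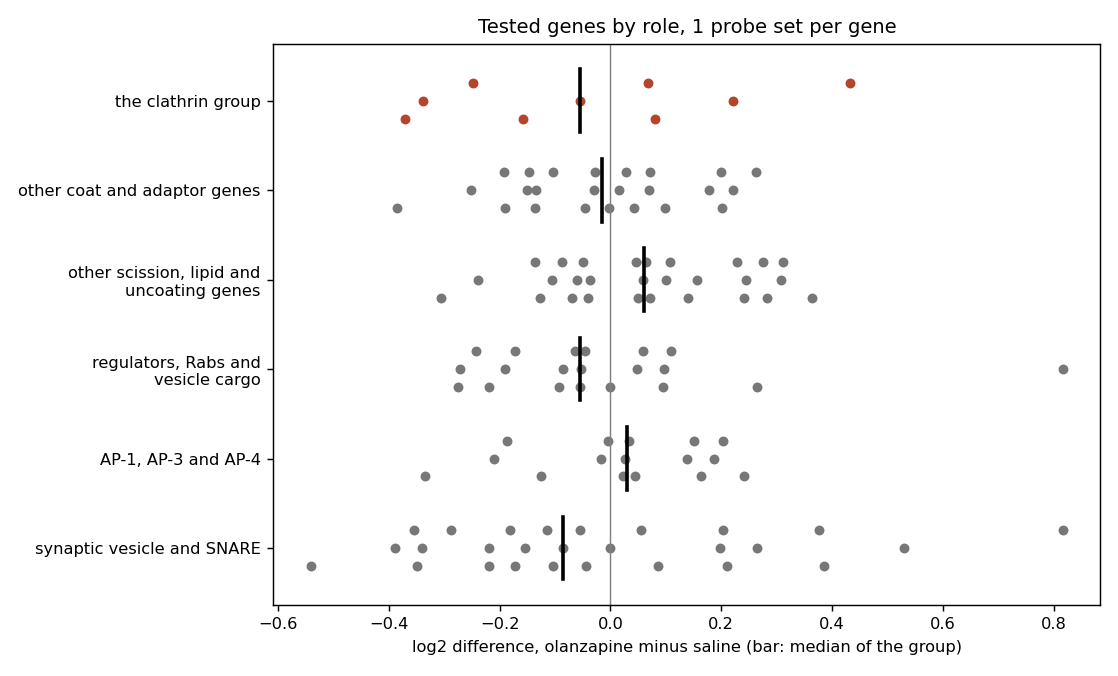
Log2 difference, olanzapine minus saline, of each tested gene by its brightest probe set, in the 9 clathrin genes (red) and in lists of related genes (grey), with the median of each list as a black bar and vertical offsets only to separate points. Points of every list lie on both sides of 0, and the medians run from -0.085 to 0.061.

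The genes whose values were most like the average of the 9 clathrin genes over the 8 arrays, after each group's mean was removed, were Kifap3 (Pearson's r = 0.98), Rab11b (0.97), Ywhab (0.96), Mrps2 (0.96) and Kiaa0408L (0.96), out of 10114 genes compared. These are the highest of 10114 correlations, each over 8 arrays, so a high r follows from the selection and nothing is read from its size. All points come from the same 8 arrays and share their preparation and scaling. Over the 45 pairs of tested clathrin probe sets the median r was -0.018, 24 pairs were negative, and r ran from -0.80 to 0.91. The averaged level, in standard deviations around the group mean, was lowest in olanzapine 14 at -0.68 and highest in saline 15 at 0.38.

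Markers of the cell types in the dissection were read on the same arrays. Of the markers of cortical excitatory neurons 5 were tested, and Tbr1 was not above the filter. The differences were -0.055 for Slc17a7 and -0.23 for Nrgn, against 0.26 for Neurod6, 0.18 for Neurod2 and 0.14 for Camk2a, with a median of 0.14. The summed intensity of the tested excitatory markers was 7495 to 8269 in olanzapine and 7370 to 9976 in saline, most of it from Nrgn and Slc17a7. Markers of GABAergic interneurons summed to 12147 to 13063 in olanzapine and 11949 to 14021 in saline, with 3 of 6 lower. Astrocyte markers had a negative difference in 7 of 7 as deposited (median -0.16, or -0.076 after quantile normalization). Their sums were 38100 to 43540 in olanzapine and 42641 to 48886 in saline, with Gja1 the largest part. Gja1 went from -0.22 as deposited to 0.080 after quantile normalization. Gja1, Slc1a3, Aqp4 and S100b lay in the brightest 5% of tested probe sets, where 88.7% of differences were negative. Meningeal markers had a positive difference in 7 of 7 (median 0.57, or 0.53 after quantile normalization), with sums of 2992 to 8135 in olanzapine and 2251 to 2882 in saline. Olanzapine 9 stood apart with 8135, of which Ptgds gave 4902, and olanzapine 14, 18 and 19 had 4330, 3989 and 2992. For Col1a1, Igf2 and Dcn of the meninges and Pecam1 of the endothelium all olanzapine arrays lay above all saline arrays, and for Slc1a3 of astrocytes all lay below, where 2.4% and 2.07% of all tested probe sets did so. Among striatal markers Drd2 and Adora2a were not above the filter, and the tested 5 summed to 2409 to 2933 in olanzapine and 2290 to 3177 in saline. Oligodendrocyte markers had 1 of 6 lower with a median of 0.10, microglial markers 0 of 4 with 0.12, and endothelial markers 2 of 6 with 0.072. By limma 0 markers were called at an adjusted p of 0.05. The part of the cell makeup of the dissection in the clathrin differences was not tested.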

How the data were processed

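The authors deposited linear probe set intensities for 8 arrays, with 31099 probe sets of which 57 are controls. Per the labels, RNA was isolated, converted and hybridized by earlier methods of that laboratory, and the summary and scaling software is not given in the sources used here. Symbols came from the platform annotation and were updated by Entrez identifier from RefSeq (GRCr8). Each array is taken as a separate animal. No detection calls were used, and the number of arrays limits the precision.

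Intensities were taken to log2(intensity + 63.4). Probe sets at or below the 40th percentile of mean log2 value were removed, which left 18625 (mean intensity above about 114) and 10 of the 12 clathrin probe sets. Olanzapine was compared with saline in limma 3.58.1 under R 4.3.3 (lmFit, eBayes with trend), two-sided, with Benjamini-Hochberg adjustment at 0.05 over all tested probe sets, tested also on simulated data. The brightest probe set stands for a gene. The 10 genes, the lists of related genes, markers and alternatives were chosen with earlier results of these data known. Partner genes were named by role, whatever their values, and the most similar genes as the 5 with the highest correlation. The 3' to 5' ratios, the brightness bands and the ranks were added after the values were seen.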

Additional observations from a re-analysis of the deposited data

How the results depend on the processing

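With 1 array left out at a time, limma called 0 to 107 probe sets, with 107 only without saline 19 and 1 without olanzapine 9, and 0 in the remaining 6 such fits. No setting other than these and the replicate block called any probe set, among log2(intensity + 1), an offset of 16, no filter, a filter at the 60th percentile, quantile normalization, median centring, cyclic loess, array weights and eBayes without a trend. Numbers 14 and 19 occur in both groups, but the labels do not link them. A fit of those 4 arrays with the number as a replicate block called 8 probe sets, 4 higher and 4 lower and none of the clathrin genes. So few arrays leave little to estimate the spread of each probe set. The calls therefore lean on variance that limma shares across probe sets, and nothing is read from them. The deviations of same-numbered arrays correlated at 0.075 and 0.11.

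The median difference of the 9 clathrin genes was -0.056, ran from -0.15 to -0.0034 with 1 array left out, and was 0.012 after quantile normalization. The count of clathrin probe sets with all olanzapine arrays below all saline arrays was 3 beside 2.07% of all tested probe sets, 3 beside 5.14% without saline 19 and 0 beside 1.76% after quantile normalization, both alternatives chosen after seeing the data. Dnm1 turned to 0.065 after quantile normalization, to 0.060 after cyclic loess, and to 0.0091 and 0.038 without saline 14 and 15. With 1 array left out Ap2b1 ran from -0.0078 without saline 19 to 0.22 without saline 15. Amph reached 0.17 without saline 19 and turned to -0.0018, -0.0039 and -0.0034 without olanzapine 19, saline 14 and saline 15. The cause was not tested. The dim probe sets of Cltb and Ap2b1 entered the fit without a filter, at 0.29 and 0.32 with limma adjusted p-values of 0.886 and 0.897, and that of Cltb also the fits with log2(intensity + 1) and quantile normalization, at 0.52 and 0.23.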
